A study of Mus musculus with 122 samples.

Results

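Cc2d2a, Kcnt2, Elavl4, Phf24, Cd300ld and Gm12617 are 6 of the 52459 genes with RNA-seq values in a study of mouse embryonic stem cells (mESCs) that lose the chromatin protein CTCF. They were chosen from the RNA-seq values of the CTCF line, as genes among the largest falls (Cc2d2a, Kcnt2, Elavl4) and the largest rises (Phf24, Cd300ld, Gm12617) after CTCF was degraded. Among 16705 genes tested there, the falls ranked 1, 3 and 4 and the rises ranked 5, 2 and 1 by log2 fold change. The degraded (I) against untreated (U) values of that line are therefore a description of how the genes were selected, with no test, and the same holds for every comparison that shares those libraries. The groups compared in the members' tests below were not used in the choice: the doxycycline-treated samples of the CTCF line and all samples of 3 other lines. Fits that hold the CTCF line also span its I and U libraries. These enter the variance and the filter (a mean of at least 10 over the line), so tests in that line are not fully separate from the choice. Cd300ld and Gm12617 passed the filter there through their I values (means of 48.86 and 75.33). Phf24 passed it there only with both its I and its ID values (means of 20.47 and 18.46). Its ID against D test in that line is thus not separate from the filter or from the libraries that chose it. Tests of other genes in I against U of the CTCF line use the libraries that chose the members.

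CTCF is a zinc finger protein that binds a long DNA motif, stops cohesin as it extrudes loops of chromatin, and so sets the borders of topologically associating domains. It also binds many gene starts, where it can act on transcription directly. CTCFL (BORIS) is a paralog with similar zinc fingers and different ends that is normally made in male germ cells.

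All lines came from E14Tg2a mESCs (129/Ola, XY) grown in serum with LIF and 2 kinase inhibitors. Both Ctcf alleles carried an auxin-inducible degron with eGFP, the auxin receptor Tir1 stood at Rosa26, and 1 FLAG-tagged, doxycycline-inducible transgene stood at Tigre, also in untreated cells. The transgene encoded CTCF, CTCFL, LCL (the zinc fingers of CTCF between the ends of CTCFL) or CLC (the zinc fingers of CTCFL between the ends of CTCF), and each line is 1 clone. U cells received nothing, I cells 500 µM of the auxin IAA, D cells 1 µg/ml of doxycycline (Dox), and ID cells both. The sample labels give 24 h of treatment, whereas the protocol for these RNA and ChIP samples gives 2 days and that for Hi-C 4 days, and the difference could not be settled from these files. Hi-C and RNA thus come from treatments of different length by the protocol. RNA-seq comprised 2 or 3 libraries in each group (38 in all), and no source states that they came from separate cultures, so p-values measure the spread between libraries, which may be technical.

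Recovered read totals ran from 6847072 to 49716771 in 36 libraries. All 8 mESC markers (Pou5f1, Nanog and others) were expressed in every line, and their summed normalized count in the CTCF line was 147981.3 to 150339.6 in U and 111167.3 to 112214.4 in I, and 136158 to 138518.3 in D and 91398.2 to 93362.4 in ID. The part of this lower sum in the members' values was not tested. The Ctcf row did not report on the degron, which acts on protein: it held 4690.79 to 4712.15 in U and 4230.53 to 4622.24 in I of the CTCF line. It also did not rise with Dox there (3549.69 to 3849.89 in D and 3909.83 to 4142.07 in ID), so these samples are called the libraries labelled D and ID. In the CLC line, whose transgene has the ends of CTCF, the Ctcf row was higher with Dox. It held 8318.57 to 8460.3 in U against 10079.61 to 10161.76 in D. It held 5585.84 to 7313.86 in I against 10257.61 to 11400.62 in ID. Its means were not higher with Dox in the CTCFL and LCL lines. Whether reads of a transgene fall in the Ctcf row was not tested. The Ctcfl row rose with Dox by 5.30, 3.62 and 5.40 on the log2 scale in the CTCFL, LCL and CLC lines.

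Cc2d2a, which encodes a protein of the transition zone at the base of cilia, fell the furthest of all genes tested in the CTCF line. The gene (ENSMUSG00000039765) lies at chr5:43662346-43740972 on the + strand of GRCm38 and spans 78.6 kb. Its normalized counts were 363 and 389 in U and 9.68, 6.82 and 5.03 in I, a log2 difference of -5.56 that chose it. In the libraries labelled D it held 305, 388 and 292, and in those labelled ID 30.1, 19.95 and 13.6. The ID values lay below every D value and above every I value of the line. ID against D differed by -3.95 on log2(value + 1) (SE 0.28, limma, adjusted p = 7.74e-08) and was called. These are bulk samples, in which fewer cells making a transcript and less of it in each cell cannot be told apart.

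The other lines, which played no part in the choice, showed the same direction for Cc2d2a. Cells of the CTCFL line had 214, 244 and 219 in U and 16.8, 11.98 and 3.62 in I (log2 fold change -4.47, SE 0.40, adjusted p = 9.65e-09). In the LCL line the values were 174 and 135 in U and 2.33 and 8.90 in I (-4.75, SE 0.50, adjusted p = 2.80e-07). In CLC cells they were 50.7 and 60.5 in U and 3.58 and 0 in I (-4.72, SE 0.76, adjusted p = 0.0014). The U and I libraries did not overlap in any line. With the transgene on, Cc2d2a was 163, 257 and 303 in D and 20.8 and 30.2 in ID of the CTCFL line (-3.17, SE 0.45, adjusted p = 4.31e-06). It was 138 and 150 in D and 2.94 and 4.24 in ID of the LCL line (-5.00, SE 0.50, adjusted p = 1.08e-07), and 56.2 and 60.2 in D and 0 and 0.91 in ID of the CLC line (-5.42, SE 0.76, adjusted p = 0.0011). All 3 were called by limma. The 2 CLC calls were lost when either U library (for I against U) or either D library (for ID against D) was left out, with fold changes of -5.82 to -3.62 and -5.89 to -4.95 over the leave-outs.

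FLAG ChIP-seq, which recovers the transgenic protein, placed CTCF inside Cc2d2a and near an annotated internal start. A site means a region with a peak in both replicates, and its height is the fold enrichment over local background in each. CTCF had a site 9.9 kb into the gene in D (5.58 and 6.95) and the same site in ID (9.17 and 5.05), and LCL had it in ID (5.42 and 4.53). None was listed there for CTCFL, for CLC or for LCL in D. CTCF further had sites at -79.3 kb and 86.9 kb from the gene start in both conditions, where negative distances are upstream. Within 100 kb of the start, CTCFL had no site in either condition and CLC had 1, at -74.4 kb in D. The cohesin subunit RAD21 had a peak over the internal site in LCL D (5.08 and 4.38).

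Kcnt2 (ENSMUSG00000052726), a sodium-activated potassium channel of neurons and other excitable cells, spans 365.9 kb on the + strand at chr1:140246158-140612067. Its normalized counts in the CTCF line were 148 and 256 in U and 4.84, 5.68 and 2.51 in I (log2 difference -5.25, selected on). The libraries labelled D held 152, 154 and 130, and those labelled ID 2.41, 10.6 and 4.54. The ID values ran through the range of I and stayed far below D, and ID against D gave -4.60 (SE 0.42, adjusted p = 9.05e-07). An antisense gene, 4930590L20Rik, and a further transcript, Gm37777, overlap Kcnt2. They held at most 14.98 and 5.91 in any library, and whether counting used strand is not stated.

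With CTCFL as the transgene Kcnt2 went from 136, 164 and 151 in U to 8.39, 2.99 and 0.91 in I (-5.18, SE 0.54, adjusted p = 9.85e-08). In D it was 96.7, 108 and 131, and in ID 1.09 and 3.02 (-5.27, SE 0.60, adjusted p = 2.55e-07). Both comparisons were called and their groups did not overlap. The level was lower in the LCL line, with 34.2 and 22.8 in U and 1.75 and 0 in I (-4.13, SE 0.83, adjusted p = 0.00048), a call that was lost without LCL U replicate 1 (-4.86 to -3.40 over the leave-outs). There, D held 24.6 and 21.5 and ID 2.35 and 8.47, and ID against D was not called (-2.09, SE 0.83, adjusted p = 0.0438). The CLC line had 17.7 and 16.6 in U, 0.89 and 3.54 in I, 42.6 and 49.9 in D and 5.27 and 2.73 in ID. Both CLC comparisons were called (I against U -2.63, SE 0.60, adjusted p = 0.00774; ID against D -3.28, SE 0.60, adjusted p = 0.00373). The first was lost without CLC U replicate 1, U replicate 2 or I replicate 1 (-3.26 to -2.0) and the second without any 1 of the 4 libraries compared (-3.66 to -2.91).

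CTCF bound no site within 3 kb of a Kcnt2 start, but 3 distal ones, at -74.4 kb, 238.1 kb and 285.7 kb from the gene start. Fold enrichments in ID were 10.89 and 5.69 at the upstream site, 8.24 and 4.88 at the first internal site and 7.91 and 6.24 at the second. LCL had both internal sites in D (3.91 and 4.79, 3.89 and 3.94) and neither in ID, where it had a site at -0.5 kb (5.76 and 5.53). CTCFL had no site inside Kcnt2 or within 100 kb of its start, and CLC had 1 inside the gene in D (152.2 kb, 5.38 and 4.05) and none in ID. Both internal CTCF sites held a match to the core of the CTCF motif, shown here with the core in capitals and 6 bases on each side. The first is at chr1:140484215-140484238 (GRCm38, + strand) and the second at chr1:140531714-140531737 (- strand).
Kcnt2 first internal site: ttcataCCTCTAGAGGGCagtaag
Kcnt2 second internal site: gttcagCCACCAGATGGCaataac

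The core searched was CCNNNAGNNGGC, on both strands, in 200 bases around each summit, and its letters were chosen after matches to a stricter form had been seen. It was present in 53% of all CTCF ID sites, 51.2% of CTCF D, 45.1% of CTCFL ID, 37.1% of CTCFL D, 30.5% of LCL ID, 28.9% of LCL D, 37.8% of CLC ID and 33.3% of CLC D sites, and in 8.60% of 32851 RefSeq promoters of 300 bases. Around the sites near the 6 genes there were 26 distinct matches, and 12 of them lay in repeat-masked sequence. Of all sites with the core, 36.7% in CTCF D and 34.7% in CTCF ID had it in repeats only. In the other lists this share ran from 12.2% (CLC D) to 26.2% (LCL ID). No window near Cc2d2a held a match, which says only that these letters are not in those windows.

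Elavl4 encodes HuD, an RNA-binding protein of neurons that binds AU-rich elements and stabilises transcripts. The gene (ENSMUSG00000028546) lies at chr4:110203722-110351909 on the - strand and spans 148.2 kb. Normalized counts in the CTCF line were 58.5 and 63.0 in U and 0.97, 1.14 and 0.84 in I (log2 difference -4.96, selected on). In the libraries labelled D it held 34.7, 32.9 and 42.4, and in those labelled ID 2.41, 0 and 1.51. ID lay about the I values, and ID against D was called at -4.19 (SE 0.49, adjusted p = 1.11e-05). The CTCFL line had 21.5, 33.6 and 30.2 in U and 0, 0 and 0.91 in I (-4.55, SE 0.93, adjusted p = 0.000453). With the CTCFL transgene it was 7.89, 28.4 and 11.2 in D and 0 and 1.01 in ID, which just missed the threshold of 0.01 (-3.38, SE 1.04, adjusted p = 0.0102).

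The LCL line was where Elavl4 stood furthest from its I level in ID. It held 17.1 and 27.2 in U, 3.49 and 0 in I, 26.8 and 20.1 in D, and 9.42 and 5.65 in ID. I against U was called (-3.41, SE 0.81, adjusted p = 0.00206), although not without LCL U replicate 1, U replicate 2 or I replicate 2 (-4.50 to -2.33). ID against D was not called (-1.54, SE 0.81, adjusted p = 0.125), nor was ID against I (1.97, SE 0.81, adjusted p = 0.0529), which passed when LCL I replicate 1 was left out (0.89 to 3.06 over the leave-outs). With CLC, Elavl4 did not pass the minimum mean of 10 and was not tested. It held 11.8 and 2.37 in U and 0 in both I libraries, at least 2.66-fold lower when I is set to the mean value of 3 reads in a library, and 4.84 and 10.3 in D against 0 and 0.91 in ID.

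The Elavl4 start carried a FLAG site in all 8 lists, the only start of the 6 genes to do so. CTCF gave fold enrichments of 10.99 and 7.80 in D and 13.04 and 13.94 in ID, CTCFL 7.65 and 8.37 in D and 11.85 and 8.83 in ID, LCL 6.35 and 7.72 in D and 7.89 and 7.17 in ID, and CLC 6.90 and 7.77 in D and 6.90 and 8.82 in ID. The binding was thus listed with each transgenic protein, also in the ID groups of the CTCF, CTCFL and CLC lines in which Elavl4 RNA was near 0. RNA and ChIP come from different samples, so no library carries both readings. The stretch covered by all 8 lists is shown because it reaches from the gene start upstream. It is chr4:110351910-110352049 (GRCm38), written on the + strand, so that the gene, which is read from the - strand, begins just before its first base. Capitals mark 2 overlapping core matches on opposite strands.
Elavl4 upstream stretch: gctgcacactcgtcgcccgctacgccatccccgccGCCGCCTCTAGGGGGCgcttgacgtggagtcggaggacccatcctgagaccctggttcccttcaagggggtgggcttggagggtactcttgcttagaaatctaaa
CTCF also had an intronic site 60.9 kb into Elavl4 in ID (7.45 and 4.61), listed for LCL (4.91 and 5.31 in ID) and not for CTCFL or CLC. The RefSeq promoter of 300 bases at this start held 23 CpG, against 3 at Cc2d2a and 12 at Kcnt2.

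**Figure D1:**
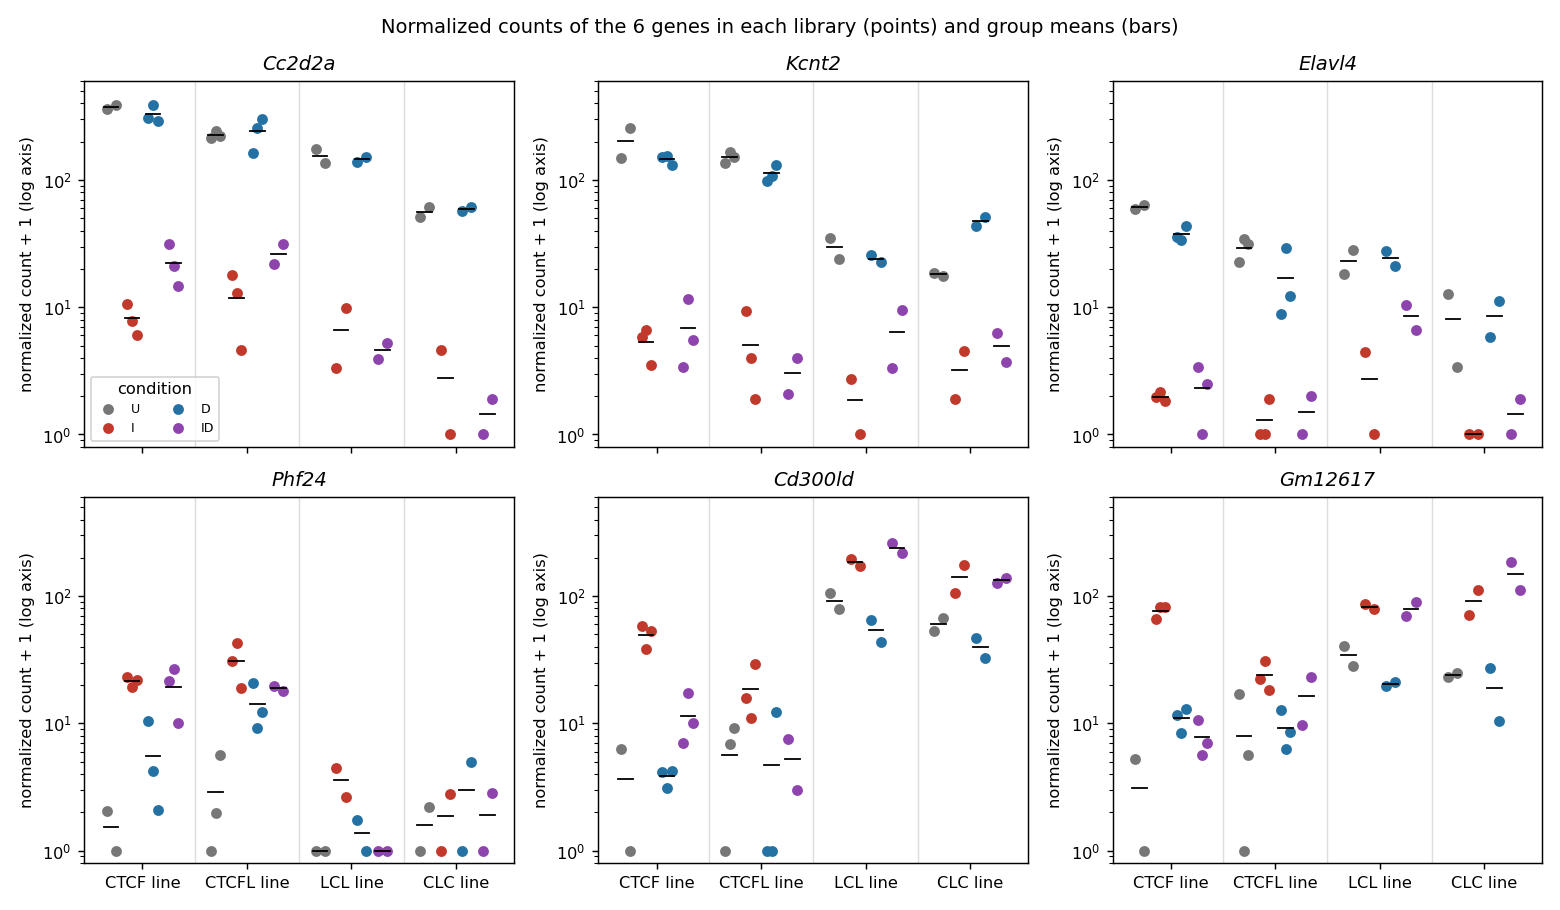
Normalized count + 1 (log axis) of the 6 genes in each RNA-seq library (points) with group means (bars), for untreated (U, grey), IAA (I, red), Dox (D, blue) and both (ID, purple) in the 4 lines. Cc2d2a, Kcnt2 and Elavl4 are lower in I than in U of every line, Elavl4 is at 9.42 and 5.65 in ID of the LCL line, and Gm12617 is at 4.69 to 9.64 in ID of the CTCF line against 64.9 to 80.7 in I.

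Phf24, also called GINIP, binds inhibitory G proteins and acts in GABA-B receptor signalling in sensory neurons. The gene (ENSMUSG00000036062) lies at chr4:42916660-42944752 on the + strand and spans 28.1 kb. Libraries of the CTCF line held 1.06 and 0 in U and 22.3, 18.2 and 21.0 in I (log2 difference 3.90, selected on). The libraries labelled D held 9.47, 3.19 and 1.09, and those labelled ID 20.5, 25.8 and 9.08. ID stood at the level of I, and its lowest value fell below the highest D value. ID against D was 2.00 (SE 0.61, adjusted p = 0.016), short of the threshold, and passed it without D replicate 1 (1.44 to 2.6 over the leave-outs) and with DESeq2.

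In CTCFL cells Phf24 rose from 0, 0.99 and 4.64 in U to 29.8, 41.9 and 18.1 in I (3.71, SE 0.76, adjusted p = 0.00045). Here D itself was above U, with 19.7, 8.27 and 11.2 (D against U 2.57, SE 0.76, adjusted p = 0.0109, called when U replicate 3 was left out). ID held 18.6 and 17.1, inside the range of D (0.50, SE 0.85, adjusted p = 0.654). In the LCL line Phf24 was 0 in both U libraries and 3.49 and 1.62 in I, at or under the mean value of 3 reads, so no fold is given. It was 0.75 and 0 in D and 0 in both ID libraries. CLC cells had 0 and 1.19 in U, 0 and 1.77 in I, 0 and 3.96 in D, and 0 and 1.82 in ID. It was not tested in either line.

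CTCF sites in Phf24 were intronic, and CTCFL had a site near the gene start. Annotated starts of the gene were also reached by other proteins. LCL had 1 site overlapping such a start in D and 1 in ID, and CTCF had 1 in D that ended 544 bases from such a start. CTCF had a site 11.8 kb into the gene in D (8.54 and 9.78) and ID (7.6 and 4.90), shared with LCL (4.24 and 6.20 in D). CTCFL had a site 0.3 kb from the gene start in D (5.19 and 6.89) and ID (4.62 and 4.49), and another 17.1 to 17.2 kb in (5.88 and 5.91 in ID). CLC had none inside the gene, and a site at about -14.3 kb was in all 8 lists. A RefSeq promoter of 300 bases at the CTCFL-bound start held 56 CpG and 84.7% GC, against 4 CpG and 40.7% GC at the promoter just upstream. The core matches at the CTCF and the CTCFL site are shown because they differ in setting: the first lies in repeat-masked sequence (chr4:42928406-42928429, - strand) and the second in the GC-rich start (chr4:42916991-42917014, - strand).
Phf24 intronic CTCF and LCL site: cagaggCCAGAAGAGGGCgggaga
Phf24 start CTCFL site: cccgccCCGGGAGCTGGCcccggg

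Cd300ld encodes an activating receptor of the immunoglobulin superfamily on myeloid cells. The gene (ENSMUSG00000034641) spans 7.6 kb at chr11:114982274-114989922 on the - strand. Its CTCF line values were 5.32 and 0 in U and 57.1, 37.5 and 51.97 in I (log2 difference 4.29, selected on). The libraries labelled D held 3.16, 2.12 and 3.26, and those labelled ID 6.03, 16.4 and 9.08. ID lay between D and I with no overlap with either, and ID against D did not pass (1.49, SE 0.61, adjusted p = 0.0591). In CTCFL cells it was under the minimum mean and was not tested, with 0, 5.93 and 8.13 in U, 14.9, 9.98 and 28.1 in I, 0, 0 and 11.2 in D and 6.55 and 2.01 in ID.

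The LCL and CLC lines had more Cd300ld RNA already in U, and whether clone or library set made this difference was not tested. In the LCL line it was 105 and 77.8 in U, 195 and 172 in I, 64.1 and 42.3 in D, and 260 and 219 in ID. The increases were called (I against U 1.01, SE 0.25, adjusted p = 0.00257; ID against D 2.17, SE 0.25, adjusted p = 5.71e-07), the first not without LCL I replicate 1, I replicate 2 or U replicate 2 (0.80 to 1.23). CLC cells had 52.3 and 66.4 in U and 105 and 174 in I (1.18, SE 0.30, adjusted p = 0.0123, called without CLC I replicate 1, with 0.82 to 1.54 over the leave-outs). With the CLC transgene it was 45.5 and 31.7 in D and 126 and 138 in ID (1.77, SE 0.30, adjusted p = 0.00254), a call lost without any 1 of those 4 libraries (1.51 to 2.02). ID exceeded D in each library of both lines. Of 8 blood cell markers, 4 passed the minimum mean in the CTCF line, and the sum of the list was 1231.5 to 1282.6 in U, 1340.7 to 1608.6 in I, 1614.6 to 1919.3 in D and 2236.8 to 2424.5 in ID, most of it Cd68, which is not limited to blood cells. The defining markers Ptprc and Lyz2 were at 0 in 30 and 35 of the 38 libraries. Spi1, a transcription factor of myeloid and B cells, was above 0 in every library and moved with Cd300ld in the CTCF line, at 36.2 to 38.7 in U, 141.3 to 159 in I, 33.7 to 44.2 in D and 83.2 to 118.2 in ID. It was also higher in I than in U of the other lines (94.2 to 127.8 against 34.8 to 47.4 with CTCFL, 168.2 to 168.9 against 46.8 to 63.6 with LCL, 272.8 to 427.9 against 111.4 to 115.1 with CLC). In ID against D they parted with LCL, where Spi1 was at 72.4 to 84.7 against 80.4 to 102.9 while Cd300ld rose. With CTCFL, Spi1 was at 66.6 to 103.5 in ID against 27.2 to 48.7 in D, while the Cd300ld values overlapped. With CLC both were higher in ID (Spi1 at 317.2 to 468.7 against 166.2 to 198.6). Mean Tyrobp and Csf1r went from 6.5 and 5.4 in U to 18.4 and 12.3 in I of the CTCF line, while Itgam went from 69.9 to 42.6 and Fcgr3 was at 11.9 in both. The part of these markers in the Cd300ld values was not tested.

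No CTCF site lay within 3 kb of the Cd300ld start. A site at -1.1 kb was listed for CTCFL in ID (6.04 and 4.91), LCL in D (6.48 and 4.77) and CLC in D (4.52 and 4.40), and RAD21 was listed there in LCL D (3.82 and 3.91). The nearest CTCF sites in ID were at 65.7 kb and -77.3 kb from the start. A core match at -93.7 kb was near the summit in 6 of the 8 lists (chr11:115083504-115083527, + strand), and is shown because more lists shared it than any other match outside repeats near Cd300ld.
Cd300ld distal upstream site: aaatgtCCACTAGGTGGCagcagt

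Gm12617 (ENSMUSG00000084034) is annotated as a processed pseudogene of 381 bases (chr11:60692695-60693075, - strand), and it rose the furthest of all genes tested in the CTCF line. Of 34 stretches of 50 bases taken every 10 bases along it, 2 had an exact copy elsewhere in the genome. Copies with mismatches were not searched for, so this count does not bound how uncertain its values are. Its CTCF line values were 4.25 and 0 in U and 64.9, 80.7 and 80.5 in I (log2 difference 5.05, selected on). The libraries labelled D held 10.5, 7.44 and 11.95, and those labelled ID 9.64, 4.69 and 6.05. ID was below every I value and overlapped D, and ID against D was -0.52 (SE 0.53, adjusted p = 0.447).

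With CTCFL, Gm12617 was 16.2, 0 and 4.64 in U and 21.5, 29.9 and 17.2 in I (2.34, SE 0.87, adjusted p = 0.0356, called without U replicate 1, with 1.24 to 3.29 over the leave-outs). It was 11.8, 5.32 and 7.49 in D and 8.74 and 22.1 in ID (0.76, SE 0.98, adjusted p = 0.542). In the LCL line it rose from 39.9 and 27.2 in U to 85.6 and 77.7 in I (1.28, SE 0.35, adjusted p = 0.00583), a call lost without LCL I replicate 1, I replicate 2 or U replicate 2 (1.01 to 1.55). There ID was also above D, at 68.3 and 89.0 against 18.6 and 20.1 (1.96, SE 0.35, adjusted p = 0.000114). CLC cells had 21.95 and 23.7 in U and 70.7 and 111 in I (1.91, SE 0.47, adjusted p = 0.0108, called without CLC I replicate 1, with 1.59 to 2.23 over the leave-outs). CLC ID held 183 and 111 against 26.2 and 9.50 in D (3.09, SE 0.47, adjusted p = 0.00159), lost without CLC ID replicate 1 (2.40 to 3.77 over the leave-outs).

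One CTCF site near Gm12617 was not listed for any other protein. It lay at -4.7 kb in D (4.93 and 4.54) and -4.6 kb in ID (5.16 and 5.05), with a core match in repeat-masked sequence at chr11:60697711-60697734 (+ strand). The next site, at -10.2 kb in ID, was in all 8 lists, with 9.49 and 8.30 for CTCF, 10.72 and 6.53 for CTCFL, 5.27 and 5.25 for LCL and 4.75 and 6.65 for CLC in ID. No site of any protein lay within 3 kb of the pseudogene.
Gm12617 nearest CTCF site: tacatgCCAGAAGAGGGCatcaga
The core letters of this match, CCAGAAGAGGGC, were also those of the Phf24 intronic site, and 11 of the 26 distinct matches near the 6 genes had them. How often all sites have these letters was not tested.

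A gene was called where limma's adjusted p was below 0.01 and the groups differed by more than 1 on the log2 scale, and the members called can be set against all genes tested. In the CTCF line, where I against U chose the genes, 5.92% of genes were called lower and 5.0% higher, and nothing is read from the members' own values. For ID against D of that line, 3 of 6 members were called lower (7.78% of all genes) and 0 higher (3.38%; Phf24 and Cd300ld had an unadjusted p of 0.0062 and 0.029, edgeR called 0 and DESeq2 called Phf24). For CTCFL, 3 of 5 tested members were called lower (5.88%) and 1 higher (3.69%) in I against U, and 2 lower (9.15%) and 0 higher (4.52%; none at an unadjusted p under 0.05, and none by edgeR or DESeq2) in ID against D.

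In the LCL line, 3 of 5 were called lower (5.34%) and 2 higher (4.25%) in I against U, and 1 lower (6.76%) and 2 higher (4.26%) in ID against D. The first count fell from 5 to 2 or 3 whenever 1 of the 4 LCL U and I libraries was left out. For CLC, 2 of 4 were called lower (6.1%) and 0 higher (6.7%; Cd300ld and Gm12617 had an unadjusted p of 0.0036 and 0.003, and edgeR and DESeq2 called both) in I against U. In ID against D, 2 of 4 were called lower (3.55%) and 2 higher (4.0%), and the count fell from 4 to 1 or 2 without any 1 of the libraries compared. Members that were not tested in a line had a mean under 10 there: Cd300ld in CTCFL, Phf24 in LCL, and Elavl4 and Phf24 in CLC. Some tested members passed this filter only through a group where they were high, so their tests are not separate from it. Through U these were Elavl4 with CTCFL (U mean 28.44, line mean 12.2) and Kcnt2 with LCL (28.52 and 14.5). Kcnt2 with CLC passed through D (46.25 and 17.4), and Gm12617 with CTCFL, which was not called, through I (22.86 and 13.2). Every member tested in the CTCFL, LCL and CLC lines had an I against U fold change in the direction seen in the CTCF line.

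**Figure D2:**
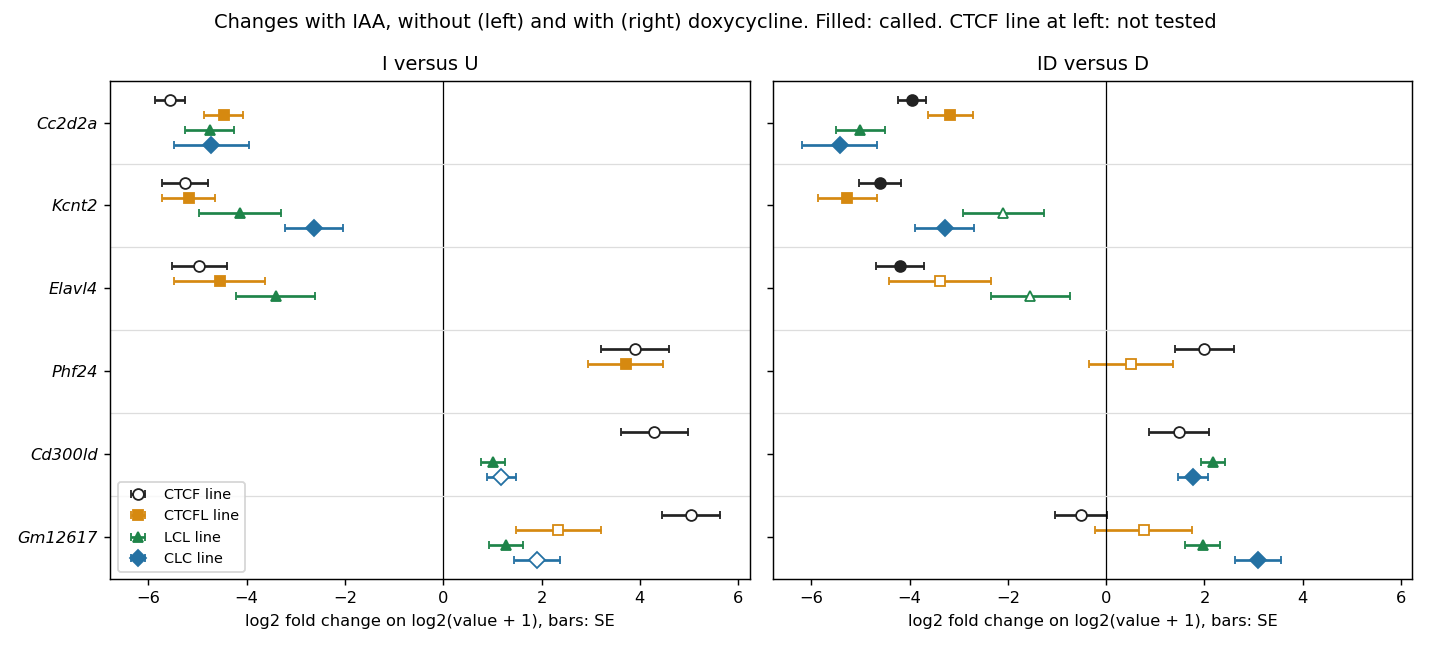
Log2 fold change on log2(value + 1) with its SE (bars) of each gene in I against U (left) and ID against D (right), for the CTCF (circles), CTCFL (squares), LCL (triangles) and CLC (diamonds) lines, with filled symbols for calls and no symbol where a gene was not tested. The CTCF line at left chose the genes and was not tested, and Gm12617 lies at -0.52 in the CTCF line and 3.09 in the CLC line at right.

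The question the design puts to these genes is which of them a transgene brought back in cells without endogenous CTCF. The share of the way back is the difference of ID from I as a percent of that of U from I, in mean log2(value + 1). In the CTCF line it was 25.4% for Cc2d2a, 4.3% for Kcnt2, 1.0% for Elavl4, 6.4% for Phf24, 51.2% for Cd300ld and 66.0% for Gm12617. Thus Kcnt2, Elavl4 and Phf24 stayed near their I level in the libraries labelled ID, Cc2d2a stood above it and far below U, and Cd300ld and Gm12617 stood past the middle. The ID values exceeded I by 1.41 (SE 0.28) for Cc2d2a, 0.22 (SE 0.42) for Kcnt2 and 0.05 (SE 0.49) for Elavl4. They were lower than I by -0.25 (SE 0.61) for Phf24, -2.19 (SE 0.61) for Cd300ld and -3.33 (SE 0.53) for Gm12617. These 6 values share the I libraries that chose the genes, and they carry no test.

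In the other lines ID against I could be tested, and no member was called. With CTCFL, 0 of 5 were called beside 7.83% of all genes, with 1 at an unadjusted p under 0.05 (Cc2d2a, 1.35, SE 0.45, adjusted p = 0.019, called when CTCFL I replicate 1 was left out, with 0.78 to 1.75 over the leave-outs). In the LCL line, 0 of 5 were called beside 8.49%, with 2 at an unadjusted p under 0.05 (Elavl4, and Kcnt2 at 1.76, SE 0.83, adjusted p = 0.0898). With CLC, 0 of 4 were called beside 1.95%, and none had an unadjusted p under 0.05. edgeR and DESeq2 also called 0 in each of these 3. The shares of the way back were 30.2% for Cc2d2a and -10.0% for Kcnt2 with CTCFL, 42.7% for Kcnt2 and 57.8% for Elavl4 with LCL, and 27.5% for Kcnt2 with CLC, and a negative share means that ID lay beyond I. Cc2d2a was at -7.1% with LCL and -13.4% with CLC. Gm12617 was at 27.1% with CTCFL, 5.0% with LCL and -35.7% with CLC, and Cd300ld at -37.4% with LCL and 2.7% with CLC. Elavl4 was at 4.2% and Phf24 at 17.3% with CTCFL. Among members under the minimum mean, Cd300ld was at 87.7% with CTCFL and Elavl4 at 17.2% with CLC.

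ID against U, which shares U with the I against U comparison of each line, gave 4 called members of 5 with CTCFL (Cc2d2a, Kcnt2, Elavl4 and Phf24; 19.6% of all genes). It gave 3 of 5 with LCL (Cc2d2a, Cd300ld and Gm12617; 12.5%) and 2 of 4 with CLC (Cc2d2a and Gm12617; 6.47%). The CTCFL count fell to 2 without CTCFL ID replicate 1 and, by the loss of Phf24, to 3 without ID replicate 2 or U replicate 1, and the CLC count to 0 without CLC U replicate 1, U replicate 2 or ID replicate 1 and to 1 without ID replicate 2. The LCL count fell to 2 without LCL ID replicate 1, ID replicate 2 or U replicate 2, each time by Gm12617. In these lines Dox alone called none of them: 0 of 5 in CTCFL (5.9% of all genes), 0 of 5 in LCL (1.91%) and 0 of 4 in CLC (0.6%), and edgeR and DESeq2 also called 0. In the CTCF line D against U shares the U libraries that chose the genes and carries no test. Gm12617 was at 2.24 (SE 0.59), Phf24 at 1.65 (SE 0.69) and Elavl4 at -0.72 (SE 0.55) there, with no overlap of D and U. Cc2d2a (-0.20), Kcnt2 (-0.42) and Cd300ld (0.60) overlapped. ID against D in that line is measured from these D levels. Unadjusted p values under 0.05 in D against U were those of Phf24 with CTCFL, Cd300ld and Gm12617 with LCL, and Kcnt2 with CLC.

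The difference between lines was tested as ID against D of the CTCF line minus the same in another line. Lines differ in clone as well as transgene, and only the LCL and CLC libraries carry 2i in their names. Mean Gata6, an endoderm gene, was 1030.5 and 1052.2 in U of the CTCF and CTCFL lines. It was 38.4 and 36.7 in U of the LCL and CLC lines. Whether transgene, clone or library set made a difference was not tested. Against CLC, 1 of 5 members was called beside 10.3% of all genes: Gm12617, at -3.61 (SE 0.99, adjusted p = 0.00483). It went up with IAA under the CLC transgene and did not under CTCF, and the call was lost without CLC D replicate 2, CLC ID replicate 1 or CTCF D replicate 3, ID replicate 2 or ID replicate 3 (-4.29 to -2.92). Against LCL, 0 of 5 were called beside 11.9%, although 3 had an unadjusted p under 0.05: Kcnt2 (-2.51, SE 0.82, adjusted p = 0.016), Elavl4 (-2.65, SE 0.99, adjusted p = 0.0346) and Gm12617 (-2.48, SE 0.99, adjusted p = 0.0483). DESeq2 called Kcnt2 and Gm12617 there, edgeR called 0, and limma called Kcnt2 without CTCF ID replicate 2 or LCL ID replicate 1 (-3.26 to -1.76 over the leave-outs). Against CTCFL, 0 of 5 were called beside 1.01%, with none at an unadjusted p under 0.05 and none by edgeR or DESeq2.

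FLAG sites within 3 kb of an annotated start can be counted for all genes as well. With CTCF such a site stood at 3 of the 6 members in D (41.8% of 16276 tested genes with an annotated start) and at 2 in ID (32.4%). CTCFL D had it at 2 (44.6%) and CTCFL ID at 3 (41.8%), LCL D at 3 (42.3%) and LCL ID at 4 (53.7%), and CLC D at 2 (10.4%) and CLC ID at 1 (28.6%). With 6 genes these counts are a description, and Phf24 and Elavl4 each have 9 annotated starts that can take a site. The lists held from 7599 (CLC D) to 37154 (CTCF D) sites at unknown depth, so that a site missing from a list is not shown to be unbound. RAD21 lists were shorter, with 3450 sites in D and 515 in ID of the CTCF line, and 1983 and 117 in those of LCL. Near the members RAD21 was listed in D of CTCF (at -74.4 kb of Kcnt2, -39.7 kb of Phf24 and 76.9 kb of Cd300ld) and of LCL, and in no ID list. The replicates were unequal, with 22765 and 3756 regions in CTCF D, 20467 and 238 in CTCFL D, and 8593 and 784 in CTCF ID. In replicate 1 alone, RAD21 stood within 3 kb of starts of Cc2d2a and Cd300ld in CTCF D and CTCFL D. It also stood there at Cd300ld in CTCF ID and CTCFL ID. A RAD21 site missing from a list is thus not shown to be unbound.

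**Figure D3:**
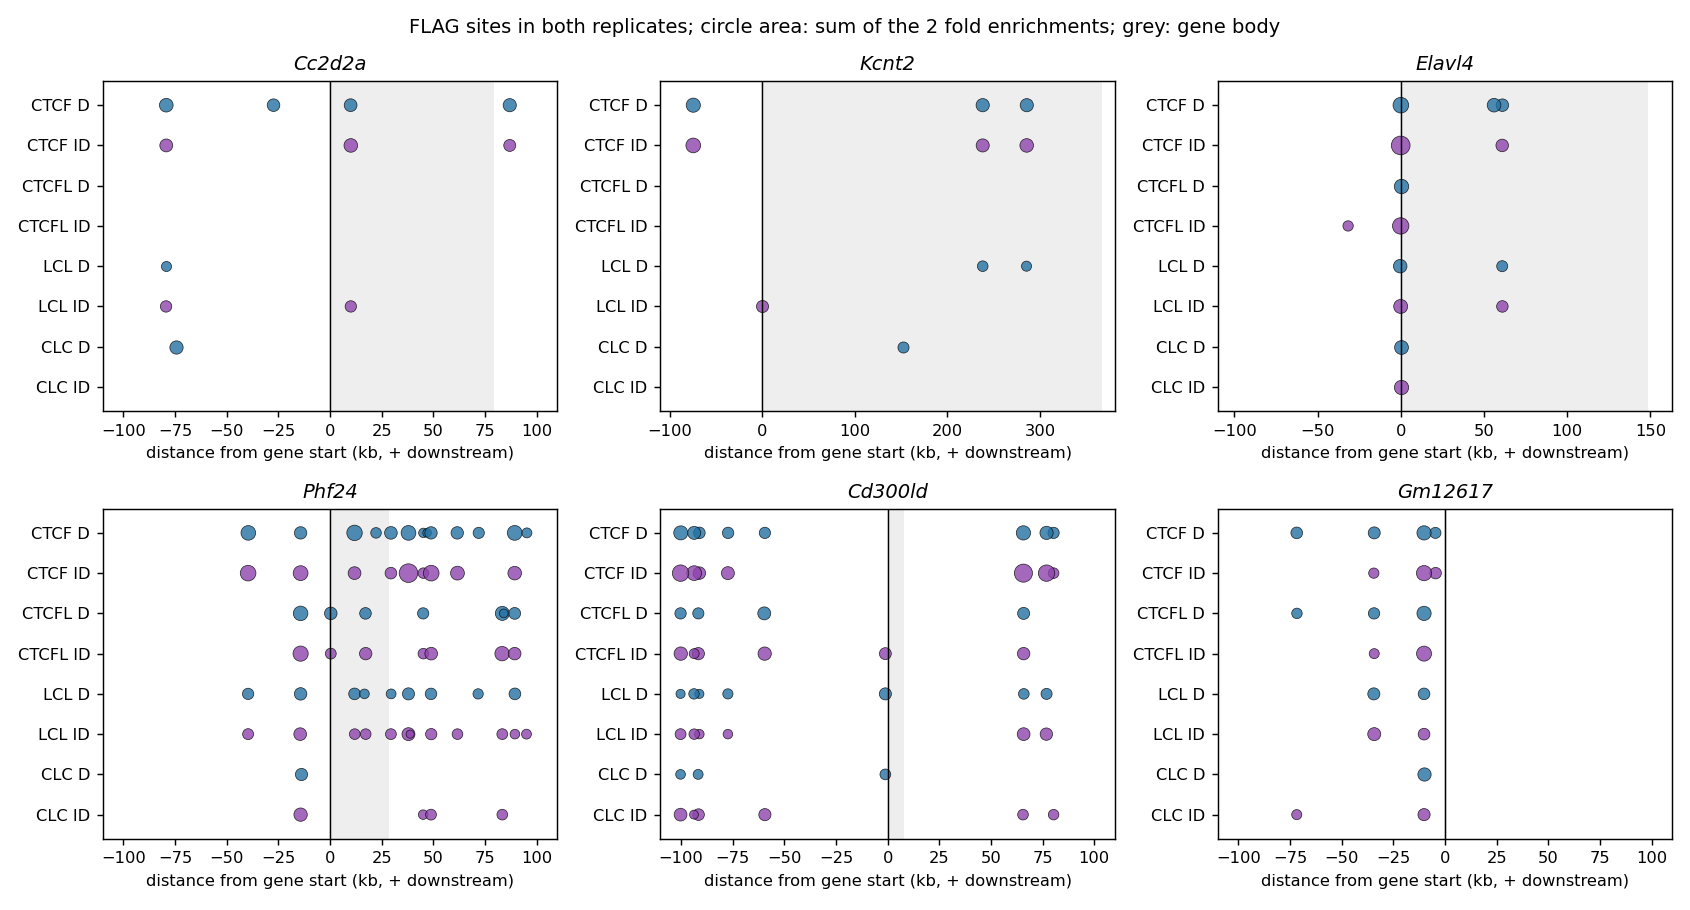
FLAG sites present in both replicates (circles) around each gene by distance from the gene start in kb, positive in the direction of transcription, for D (blue) and ID (purple) of the 4 lines, with circle area scaled to the sum of both fold enrichments and the gene body in grey. Elavl4 has a site at its start in every row, Kcnt2 has internal sites in CTCF and LCL D at 238.1 and about 285.7 kb, and Gm12617 has a site at -10.2 or -10.1 kb in every row.

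Hi-C domains were listed for 12 conditions by 2 callers in bins of 40 kb. The Crane caller is used first here, and a boundary is taken as kept when one lies within 40 kb of the place it had in CTCF U. Of all 6206 boundaries of CTCF U, IAA in the CTCF line left 54.8%, Dox 86.2% and both together 76.2%. Of the 12 boundaries that flank the 6 gene starts, 10 were kept in CTCF I, 12 in D and 9 in ID. When the boundary had to lie in the same bin, 4 were kept in CTCF I, beside 24.9% of all boundaries. For Cc2d2a, Elavl4 and Phf24 both flanking boundaries were kept in all 12 conditions. Those of Cc2d2a lay at -142.3 kb and 137.7 kb from its start, and the start itself fell between listed domains. Kcnt2 kept both except in CTCFL I (1) and CTCFL ID (0), where its domain was 840 and 600 kb long in place of 400 kb. Cd300ld kept 1 in CTCF I, CTCF ID and CTCFL I, and Gm12617 kept both in CTCF D, none in CTCF ID and 1 in each other condition.

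The domain that holds the Elavl4 start was 1720 kb long in U and D of the CTCF and CTCFL lines and in LCL D. It was 520 kb in CTCF I, 480 kb in CTCF ID, 560 kb in CTCFL I, 640 kb in CTCFL ID and 920 kb in LCL ID. In each of these 5 conditions with IAA a boundary was listed inside the span of the longer domain. CLC had 640 kb in ID, but also 440 kb in D without IAA. The second caller, HiCratio, did not show it: it gave 2000 to 2040 kb for Elavl4 in all 12 conditions. It kept 10 of 12 flanking boundaries of the members in CTCF I and 10 in CTCF ID, beside 57.8% and 78.6% of all its boundaries. The shortening of the Elavl4 domain was therefore seen with 1 of 2 callers.

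**Figure D4:**
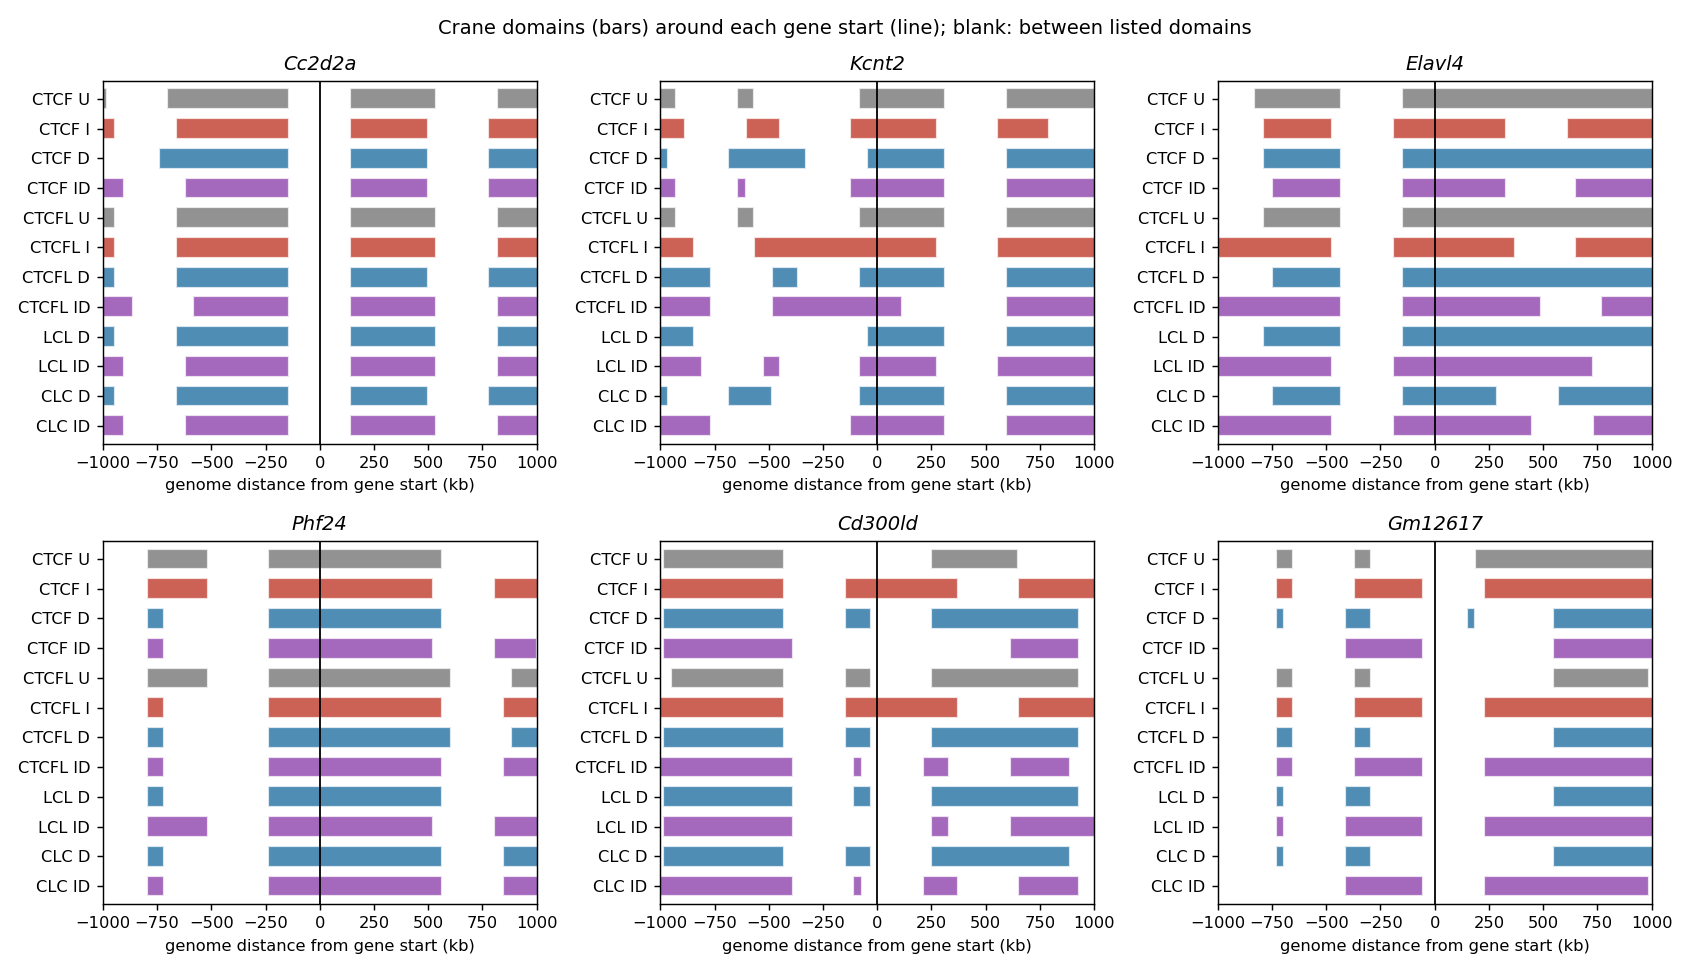
Domains listed by the Crane caller (bars) within 1000 kb of each gene start (line) in 12 Hi-C conditions, by distance along the genome in kb, coloured by condition (U grey, I red, D blue, ID purple), with blank where no domain is listed. The Elavl4 domain runs past the edge of the plot in U and D of the CTCF and CTCFL lines and in LCL D and ends inside it in the rows with IAA and in CLC D, and the Phf24 domain is 760 to 840 kb long in all rows.

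Genes related to the members stood in 5 lists. In the CTCF line 4 of 34 tested (11.8%) were called in I against U, beside 10.9% of all genes, and 5 of 34 (14.7%) in ID against D, beside 11.2%, and each of these was lower. Of the 17 other genes of the cilium transition zone, 1 was called in the CTCF line, Cep290, which fell by 1.38 in I against U and by 1.75 in ID against D on the log2 scale. Their medians were 0.15 and -0.05, beside 0.03 and 0.04 over all genes tested, of which 10.9% and 11.2% were called in either direction. Of 6 tested relatives of Kcnt2 among potassium channels, 1 fell in both comparisons: Kcnma1, the large-conductance calcium-activated channel (-2.58, SE 0.62, adjusted p = 0.0041, and -3.94, SE 0.55, adjusted p = 5.50e-05), with medians of 0.03 and 0.04. Of the 3 other Elavl genes, Elavl2, also a neuronal RNA-binding protein, fell by 1.61 and by 2.35, while Elavl1, which most cells make, was at -0.37 and -0.57 and Elavl3 at 0.63 and 0.54, under the fold limit. The median of the 3 was -0.37 and -0.57.

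Of 5 tested genes for inhibitory G proteins and GABA-B receptors, with which Phf24 acts, 1 was called in I against U (Gnao1, -1.14) and 2 in ID against D (Gnai1, -1.17, and Gnao1, -1.65), each lower. The receptor gene Gabbr1 was at -0.97 and -0.87, under the fold limit, and the median of the 5 was 0.03 and -0.87. Of 11 other Cd300 genes, 3 were tested and none was called by limma (2 in I against U and 1 in ID against D had an unadjusted p under 0.05). Cd300a was at 1.05 (adjusted p = 0.029), Cd300lf at 0.30 and Cd300lg at 1.14 (adjusted p = 0.063) in I against U, and at 0.20, 0.82 (adjusted p = 0.0019, under the fold limit) and 0.46 in ID against D.

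The other lines gave 4 of 33 list genes called in I against U with CTCFL (9.58% of all genes), 2 of 29 with LCL (9.58%) and 4 of 29 with CLC (12.8%). Cep290 was called in each, with Rpgrip1l beside it in LCL and CLC. For ID against D the counts were 6 of 33 with CTCFL (13.7%; Cep290, Kcnma1, Elavl2, Gnai1, Gnao1 and Gabbr1), 2 of 29 with CLC (7.55%; Ahi1 and Gnao1) and 0 of 29 by limma with LCL (6.76% of all genes called lower and 4.26% higher), where 13 had an unadjusted p under 0.05. All the list genes called in these comparisons were lower.

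Of the 12 nearest tested protein-coding neighbours of the members, 4 were called in I against U of the CTCF line, where 10.9% of all genes were called. The neighbours of Cc2d2a, Cpeb2 (429.2 kb) and Bst1 (156.5 kb), of Kcnt2, Aspm (791.4 kb) and Cdc73 (3456.7 kb), and of Gm12617, Alkbh5 (156.7 kb) and Llgl1 (6.6 kb), were not called there. Around Elavl4, Dmrta2 (373.9 kb), a transcription factor of neural progenitors, rose by 1.30 (SE 0.30, adjusted p = 0.0032) and Bend5 (1063.1 kb) fell by 1.09 (SE 0.26, adjusted p = 0.0044). Dnajb5, 33.2 kb from Phf24, rose by 1.03 (SE 0.09, adjusted p = 1.00e-06), and Rab37, 101.5 kb from Cd300ld, by 1.09 (SE 0.12, adjusted p = 1.10e-05). The other neighbours there, Fam205c at Phf24 (0.77) and Cd300a at Cd300ld (1.05), were not called. In ID against D limma called 0 of the 12 (9 had an unadjusted p under 0.05), with 0.82, -0.32, 0.35 and 0.73 for the 4 called in I against U.

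The neighbours were also tested in the lines that did not choose the members. Rab37 was at 1.28 (SE 0.21, adjusted p = 7.30e-05) in I against U with LCL and 1.81 (SE 0.18, adjusted p = 0.00014) with CLC, both called, beside 1.01 and 1.18 for Cd300ld itself, and at 0.74 with CTCFL. Dnajb5 was called with CLC (1.58, SE 0.17, adjusted p = 0.00017) and was at 0.60 with LCL and 0.82 with CTCFL. Dmrta2 was called with LCL (1.48, SE 0.39, adjusted p = 0.0048) and was at 1.21 with CTCFL and -0.48 with CLC. Bend5 was at -0.79, -1.47 and -0.41 with CTCFL, LCL and CLC and was not called. In all, 2 of 12 neighbours were called with LCL, 2 of 10 with CLC and 0 of 11 by limma with CTCFL, where 8 had an unadjusted p under 0.05.

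Across the 38 libraries, after the mean of each line was removed, the 3 genes that fell followed one another most closely. Pearson's r on log2(value + 1) was 0.921 between Kcnt2 and Elavl4, 0.877 between Cc2d2a and Kcnt2 and 0.856 between Cc2d2a and Elavl4. It was 0.605 between Cd300ld and Gm12617, 0.528 between Phf24 and Cd300ld, and 0.485 between Phf24 and Gm12617. These values include the libraries that chose the genes and share treatment and depth, and are descriptions. The genes most like Cc2d2a among 16479 others were Immp2l (0.955), Ltbp1 (0.955) and Col11a1 (0.949). Those most like Kcnt2 were Commd10 (0.951), Fam184a (0.950) and Rai14 (0.948), and most like Elavl4 were Hsd17b12 (0.941), Commd10 (0.939) and Ttc7b (0.935). The likeness was weaker for the genes that rose: Ngef (0.776), Klhl21 (0.758) and Gclm (0.744) for Phf24, Zfp78 (0.814), Zwint (0.813) and AC126554.8 (0.808) for Cd300ld, and Acad11 (0.820), Tmem159 (0.800) and Oas1e (0.797) for Gm12617.

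Neuronal markers moved unequally beside Elavl4, Kcnt2 and Cc2d2a. Of 11, 7 passed the minimum mean in the CTCF line, and the summed normalized count was 23570 to 26134.3 in U, 16019.6 to 18246.5 in I, 25938.8 to 29084 in D and 21848 to 22649 in ID, most of it Stmn2. Map2, a microtubule protein of neurons, was at 896.5 to 958.9 in U, 124.9 to 180 in I, 861 to 971 in D and 69.6 to 119.4 in ID. Sox1, of neural progenitors, was at 535.8 to 561.5 in U, 173.3 to 221.3 in I, 419.3 to 527.3 in D and 228.5 to 272.2 in ID. Both were thus low where the 3 genes were low, whereas the mean of Nes, also of neural progenitors, was 2675.9 in U and 3479.7 in I. In the LCL line Map2 was at 12.9 to 13.4 in I and 121.5 to 132.4 in ID, beside 137.2 to 151.9 in D. Sox1 did not come back there, at 85.0 to 102.7 in I and 71.8 to 101.7 in ID, beside 138.7 to 190.8 in D. Stmn2 was at 7488.8 to 7977.8 in I and 6837.3 to 7698.6 in ID of that line. Dcx, a defining marker of young neurons, was at 0 in 31 of 38 libraries. The part of these markers in the values of the 3 genes was not tested.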

How the data were processed

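Poly(A) RNA was sequenced in 38 libraries, FLAG and RAD21 ChIP-seq in 2 replicates per group, and Hi-C in 12 conditions. The authors aligned RNA reads to GRCm38/mm10 with STAR, and the table they deposited holds normalized signal, gene counts divided by 1 size factor per library. Trim Galore 0.4.4, SAMtools 1.3, HTSeq, Bowtie2 and deepTools stand in the submitters' processing notes. Whole reads were recovered in 36 libraries, where 100% of values of up to 500 reads lay within 0.1 of a whole number, and on them edgeR called 1882 genes in ID against D of the CTCF line, beside 1864 by limma. No value column was left unmapped. The 10 highest genes held 4.81% to 7.61% of a library. Replicate libraries differed by a chi-square of 1.36 to 47.8 per degree of freedom, above sampling noise, so each counted as 1 sample.

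limma 3.58.1 (R 4.3.3) tested the values on the log2(value + 1) scale, with a trended empirical Bayes variance and 1 fit for each line over U, I, D and ID, for genes with a mean of at least 10 in the line, with Benjamini-Hochberg adjustment over all genes tested. Fold changes of low genes are understated on this scale. A gene was called below an adjusted p of 0.01 where the groups differed by more than 1 on the log2 scale. Differences between lines came from 1 fit over all 38 libraries. Members, lists and tests were chosen with earlier results of these data known. The named genes are the 6 members, their nearest tested protein-coding neighbours, the 3 genes most like each, and members of 5 gene lists. Genes were placed with GENCODE vM21.

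Peak lists were called per replicate by the authors with MACS on GRCm38/mm10. They give the fold enrichment (a ratio) and the −log10 q of each peak as deposited, and no read depth. Peaks of chromosomes 1 to 19 and X that overlapped were merged, and a site needed a peak in both replicates. Each Hi-C condition has 1 list by each caller, which are not replicates. Promoter sequences are from RefSeq (GRCm38.p6), which had entries for 5 of the 6 members, and other sequences were read from GRCm38 with pysam 0.24.0. Peak lists of other transgenes, mock and RNase-treated samples were not used here. Alternatives were a pseudocount of 5, a minimum mean of 50 or none, TMM scaling, a fit of the 4 lines together, a block for the replicate number, leaving out each library, and count tests on recovered reads by edgeR 4.0.16 and DESeq2 1.42.0 (without the 2 libraries that gave none). The tests were checked on simulated data with 1 fixed spread for all genes. Only genes with higher means than most members have in these lines were changed there. The check therefore does not cover members with low values.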

Additional observations from a re-analysis of the deposited data

Results flagged for a closer look

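Gm12617 was the 1 result whose effect differed between lines by a test of the difference itself. It was 1 of 5 members tested, in a comparison that called 10.3% of all genes (1698 of 16480). The lines differ in clone and library set as well as transgene, and these were not separated. ID against D in the CTCF line minus that in the CLC line was -3.61 on the log2 scale (SE 0.99, limma, adjusted p = 0.00483). In the CLC line both ID libraries (183 and 111) lay above both D libraries (26.2 and 9.50), and in the CTCF line the libraries labelled ID (9.64, 4.69 and 6.05) and D (10.5, 7.44 and 11.95) overlapped. The call was lost when any 1 of 5 libraries was left out, with the difference between -4.29 and -2.92 over all leave-outs.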

How the results depend on the processing

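Of 253 alternatives to the 19 counts of members called, 211 stayed within 1.5 times the reported count and 42 did not. Of 833 alternatives to fold changes, 812 kept their direction, and none of the 21 that changed sign had been called. With a minimum mean of 50, fewer members were tested, and the counts were 0 for CLC I against U (reported 2), 2 for CLC ID against D (4), 1 for CLC ID against U (2), 2 for CTCFL I against U and 2 for CTCFL ID against U (4 each), 3 for LCL I against U (5) and 0 for the CTCF minus CLC difference (1). With no filter they were 1 for CLC I against U, 1 for CLC ID against U, 3 for LCL I against U and 0 for that difference. With all 4 lines in 1 fit, LCL I against U gave 3. Some counts stayed within 1.5 times while members were exchanged. That fit lost Cd300ld and Gm12617 and gained Kcnt2 in LCL ID against D and in LCL ID against U. In CLC ID against D it lost Cd300ld and gained Elavl4. Phf24 was lost in CTCFL ID against U with edgeR, with DESeq2 and with no filter. DESeq2 and edgeR gave 4 for CLC I against U, and DESeq2 and a pseudocount of 5 gave 2 for the CTCF minus LCL difference (reported 0). The cause was not tested, except that a higher minimum leaves fewer members in the test.

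Leaving out 1 library gave 0 to 3 for CLC I against U, 1 to 2 for CLC ID against D, 0 to 1 for CLC ID against U, 0 to 1 for CTCFL D against U, 0 to 1 for CTCFL ID against I, 2 to 4 for CTCFL ID against U, 2 to 3 for LCL I against U, 0 to 1 for LCL ID against I, and 0 to 1 for the CTCF minus CLC and the CTCF minus LCL differences. Where it left a lone library in a group, that library was assumed to vary like the other groups. For ID against D of the CTCF line the count was 3 to 4, and Cc2d2a, Kcnt2 and Elavl4 kept their call throughout.

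Same-numbered replicates did not deviate together, with correlations of -0.297 to 0.056, so the numbers do not pair the samples. With the replicate number as a block, CLC I against U gave 1 (Kcnt2 lost), and each other count was as reported.

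Fold changes that changed sign had not been called. Over the leave-outs, ID against I in CTCFL ran from -1.08 to 0.07 for Kcnt2 and -0.31 to 0.70 for Elavl4 (-1.21 with DESeq2, -2.17 with edgeR). In LCL it ran from -1.12 to 0.45 for Cc2d2a and -0.25 to 0.12 for Gm12617, which was at 0.01 without I replicate 1. In CLC it ran from -1.73 to 0.47 for Cc2d2a and -0.39 to 0.33 for Cd300ld, which was at 0.03 without ID replicate 1. The CTCF minus CTCFL difference was 1.57 (DESeq2) and 2.44 (edgeR) for Elavl4, reported as -0.82. For Cd300ld, reported as 0.45, it was -0.69 (DESeq2), -0.63 (edgeR) and -0.28 (replicate block), and ran from -0.76 to 1.11 over the leave-outs, with -0.22 without CTCFL ID replicate 2. The CTCF minus CLC difference was -0.17 for Cc2d2a with a pseudocount of 5 (reported 1.47), and for Cd300ld 0.12 (DESeq2), 0.04 (edgeR) and -0.63 to 0.03 over the leave-outs (reported -0.28). The cause was not tested.

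Of the counts of sites, CLC D had 1 member with a site within 3 kb of a start at a −log10 q of at least 5 (reported 2), CLC ID had 2 in replicate 2 alone (1) and CTCFL D had 4 in replicate 1 alone (2). With the same bin required, 4 of 12 flanking boundaries were kept in CTCF I (10), 6 in LCL ID (11) and 5 in CLC ID (11). Of all boundaries, 24.9%, 23.7% and 22.9% were kept at that setting.

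Over all genes, the called number moved by more than 1.5 times for CLC D against U (92 reported, 341 with the 4 lines in 1 fit, 264 with DESeq2, 42 with no filter, 22 with the replicate block), CLC ID against I (299 reported, 620, 479 and 164 with the first, second and last of these) LCL D against U (291 reported, 461 in 1 fit) and CTCF D against U (76 reported, 28 with the block). Leaving out 1 library gave 1 to 2 for CLC D against U, 60 to 637 for CLC ID against I, 360 to 732 for CLC ID against U (992), 663 to 763 for CLC ID against D (1158), 1214 to 2400 for CLC I against U (1962), 154 to 359 for LCL D against U and 12 to 70 for CTCF D against U, so the shares of all genes called beside the members in these comparisons move as much.

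Depth limits the low end: with 2 or 3 libraries and values of a few reads, fold changes against I of Elavl4 or U of Phf24 rest on the pseudocount, and ChIP depth is unknown. TMM scaling moved the median of all genes by less than 0.1.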
